A study of Homo sapiens with 18 samples.

Results

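The 10 genes described here are imprinted genes that belong to, or have been linked with, the network around the lncRNA H19: IGF2, CDKN1C, PHLDA2, SLC22A18, DLK1, MEG3, PEG3, PEG10, GRB10 and PLAGL1. They were chosen by name, and are 10 of 59679 RefSeq genes on the main chromosomes of GRCh38.p14. Each was read in a window from 10 kb upstream to 10 kb beyond the gene, and all 10 had a window. Histone methylation was profiled by chromatin immunoprecipitation sequencing (ChIP-seq) in V16D, a line of castration-resistant prostate cancer cells derived from LNCaP. The cells were transduced in biological triplicate with a control lentivector (V16D/CTL) or with a lentivector that overexpresses H19 (V16D/H19). Both groups therefore carry a lentiviral vector, and both come from a single cell line. Each of the 3 replicates a group gave a library for H3K4me3 and another for H3K27me3, hence 12 peak lists, besides 6 input libraries that served as controls in peak calling.

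In an imprinted gene the copies inherited from the mother and the father differ in activity. H3K4me3 marks starts of active or poised genes, whereas H3K27me3, deposited by Polycomb repressive complex 2, marks repressed chromatin. H19 and IGF2 are reciprocally imprinted neighbours that share an imprinting control region, and mouse work has placed H19 in the control of a wider set of imprinted genes. A peak list does not separate the parental copies, and in a bulk sample fewer cells with a mark and less mark per cell cannot be told apart.

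The lists held 20048 to 21934 H3K4me3 peaks and 55060 to 72289 H3K27me3 peaks, and the read depth behind them was not used here. H3K27me3 peaks were weak: between 0.252% and 0.967% of those in a list reached a −log10 q of 5, or 510 to 699 peaks in V16D/CTL libraries and 142 to 189 in V16D/H19 libraries. All 7 prostate luminal markers (KLK2, KLK3, TMPRSS2, FKBP5, ABCC4, KRT8 and KRT18) had an H3K4me3 peak within 1 kb of the start in all 6 libraries, and none of the 3 basal markers (KRT5, KRT14 and TP63) had one in any library. Among the other lists, SYP alone of 4 neuroendocrine markers and COL1A1 alone of 3 fibroblast markers had such a peak in all 6 libraries. The H19 gene had no peak of either mark in its window in any library, so these marks do not check the overexpression from the vector.

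In the member windows the lists held 90 distinct H3K4me3 peaks at 7 genes and 108 distinct H3K27me3 peaks at 6 genes. The genes divided by mark. IGF2, DLK1 and MEG3 had H3K27me3 peaks and no H3K4me3 peak in any library. PHLDA2, SLC22A18, PEG3 and GRB10 had H3K4me3 peaks and no H3K27me3 peak in any library. CDKN1C, PEG10 and PLAGL1 had both. The windows of CDKN1C and SLC22A18 share 6085 bases and those of SLC22A18 and PHLDA2 share 16974 bases, so these 3 neighbours are not independent of one another.

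The RefSeq promoter table used here gives 300-base sequences (250 bases before to 50 after a start) for 15 starts of 4 members, namely PLAGL1, GRB10, SLC22A18 and MEG3. The 6 shown here carry the contrasts between starts and marks, and are given on the strand of the gene, with build GRCh38.p14. Capitals mark TGCCGC or its reverse complement GCGGCA, the core letters recognised by ZFP57, a zinc finger protein that maintains methylation at imprinting control regions. The first and the internal start of PLAGL1 both carried H3K4me3. The internal start is shared with the imprinted transcript HYMAI.
PLAGL1 first start, chr6:144064550-144064849, minus strand: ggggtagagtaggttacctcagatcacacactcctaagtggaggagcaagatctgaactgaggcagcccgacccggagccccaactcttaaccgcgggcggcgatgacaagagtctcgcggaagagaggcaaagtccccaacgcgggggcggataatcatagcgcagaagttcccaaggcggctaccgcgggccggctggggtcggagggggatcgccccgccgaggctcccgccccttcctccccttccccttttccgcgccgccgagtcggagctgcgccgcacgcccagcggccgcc
PLAGL1 internal start, chr6:144008210-144008509, minus strand: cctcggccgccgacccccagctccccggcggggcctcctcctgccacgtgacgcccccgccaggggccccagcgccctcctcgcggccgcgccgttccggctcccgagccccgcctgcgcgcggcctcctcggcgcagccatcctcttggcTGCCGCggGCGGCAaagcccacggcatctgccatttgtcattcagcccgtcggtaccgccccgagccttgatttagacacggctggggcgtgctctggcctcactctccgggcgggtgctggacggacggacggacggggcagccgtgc
At GRB10 the first start carried a strong H3K4me3 peak and the internal start a weak one.
GRB10 first start, chr7:50793404-50793703, minus strand: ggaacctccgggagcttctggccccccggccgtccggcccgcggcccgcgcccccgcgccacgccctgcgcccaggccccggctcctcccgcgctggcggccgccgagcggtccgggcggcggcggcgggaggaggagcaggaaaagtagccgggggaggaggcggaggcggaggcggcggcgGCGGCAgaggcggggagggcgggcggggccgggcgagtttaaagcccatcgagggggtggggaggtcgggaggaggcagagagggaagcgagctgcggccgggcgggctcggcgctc
GRB10 internal start, chr7:50782847-50783146, minus strand: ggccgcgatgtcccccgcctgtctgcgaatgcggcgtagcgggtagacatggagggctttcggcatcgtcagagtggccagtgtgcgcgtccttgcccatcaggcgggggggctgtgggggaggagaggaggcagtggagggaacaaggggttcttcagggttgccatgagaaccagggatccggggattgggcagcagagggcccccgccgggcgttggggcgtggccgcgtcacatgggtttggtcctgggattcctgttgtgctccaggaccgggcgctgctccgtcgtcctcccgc
The start of MEG3 carried H3K27me3 alone, and a start of SLC22A18 inside the annotated gene carried its strongest H3K4me3 peak.
MEG3 start, chr14:100825858-100826157, plus strand: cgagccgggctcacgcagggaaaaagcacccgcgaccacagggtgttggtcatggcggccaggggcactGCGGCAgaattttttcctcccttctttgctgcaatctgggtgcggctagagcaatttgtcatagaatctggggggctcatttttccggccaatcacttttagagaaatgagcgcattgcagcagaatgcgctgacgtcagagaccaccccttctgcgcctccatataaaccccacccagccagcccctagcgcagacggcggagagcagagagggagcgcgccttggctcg
SLC22A18 internal start, chr11:2902028-2902327, plus strand: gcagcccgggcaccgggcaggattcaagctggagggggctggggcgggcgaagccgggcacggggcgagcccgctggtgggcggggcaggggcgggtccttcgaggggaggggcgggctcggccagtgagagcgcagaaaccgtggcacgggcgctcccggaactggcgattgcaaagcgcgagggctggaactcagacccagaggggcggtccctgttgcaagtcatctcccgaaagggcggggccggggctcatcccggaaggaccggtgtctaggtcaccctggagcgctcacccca

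TGCCGC, searched on both strands, was found 2 times at the internal start of PLAGL1, 1 time at the first start of GRB10 and 1 time in each of the 3 overlapping MEG3 windows. It was not in the other windows shown, and 16.7% of 35116 promoters of the same length held it. A second motif, the YY1 core GCCATNTT, was found at 1 start, PLAGL1 at position 143961412, against 6.58% of all promoters. The windows differed more in CpG content. The 7 starts with an H3K4me3 peak in all 6 libraries held 24 to 49 CpG dinucleotides, the 3 MEG3 windows 17 to 19, and the other 5 starts, at which no library had a peak of H3K4me3, 2 to 4. The median over all promoters was 14. Several of these windows overlap, and the match of letters to peaks is a description.

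**Figure D1:**
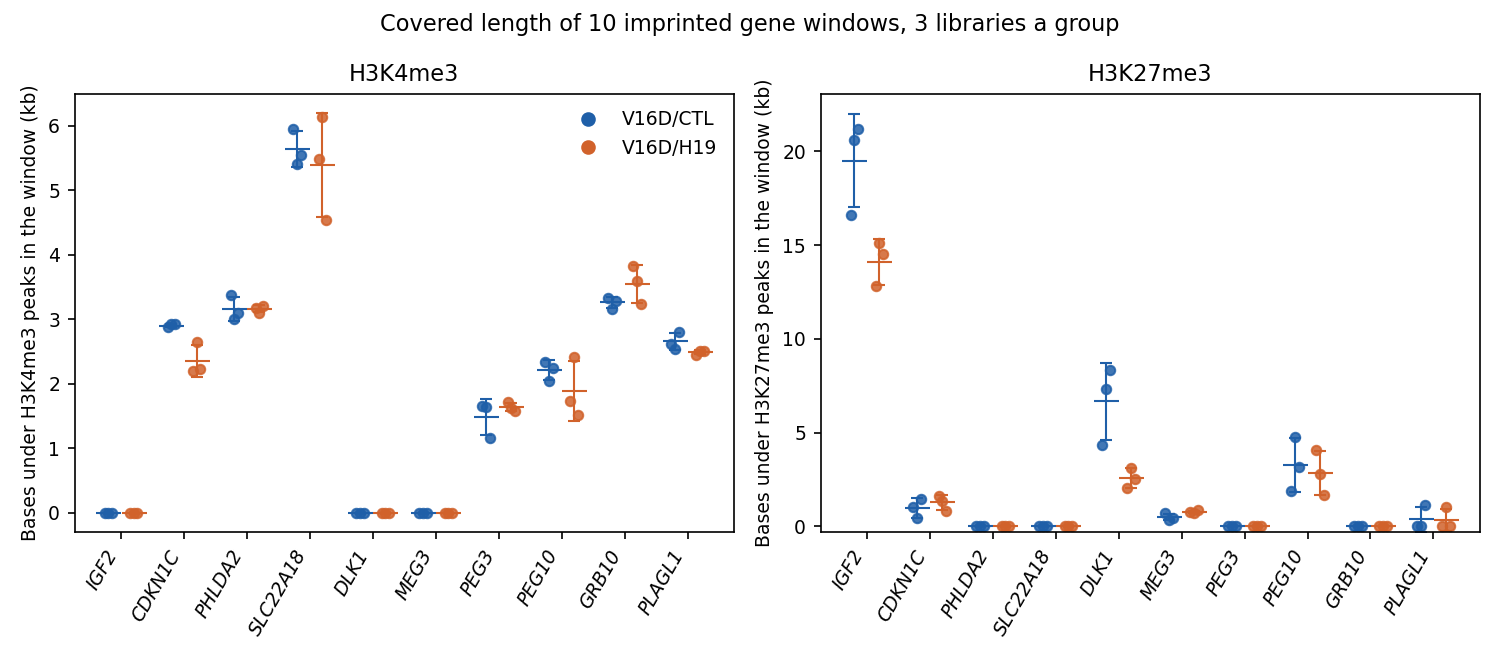
Bases of each gene window under peaks, in kb, for H3K4me3 (left) and H3K27me3 (right). Points are libraries, and horizontal lines with bars are the mean ± SD of 3 libraries a group. IGF2 and DLK1 have the widest mean H3K27me3 cover in V16D/CTL, and at both all 3 V16D/H19 libraries lie below all 3 V16D/CTL libraries.

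IGF2 (chr11:2129117-2149566, minus strand) encodes a fetal growth factor expressed from the paternal copy. Its window held the widest H3K27me3 cover of the 10. Peaks covered 16.6, 20.6 and 21.2 kb in the V16D/CTL libraries and 12.8, 15.1 and 14.5 kb in the V16D/H19 libraries. The groups did not overlap, with means of 19.5 kb ± 2.47 (SD, n = 3) and 14.1 kb ± 1.23 (SD, n = 3), or 48.1% and 34.9% of the window. The difference was −5.33 kb, at the smallest p that the two-sided exact permutation test over 20 assignments allows (p = 0.1). Over all libraries, 41.5% of the window was covered, a larger share than in 98.2% of the 18807 gene windows with any H3K27me3 peak, for which the median was 1.63%.

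A pair of neighbouring H3K27me3 regions accounted for most of this cover in all 6 libraries. The first ran from −2233 to 12434 bases relative to the IGF2 start, negative values lying upstream, and contained the antisense gene IGF2-AS. Peaks filled 11330, 14386 and 13353 bases of it in V16D/CTL libraries and 12110, 11816 and 12099 bases in V16D/H19 libraries, so the groups overlapped there. The longest single peak in the region had 4520, 14386 and 12770 bases in V16D/CTL libraries and 5274, 10509 and 8793 bases in V16D/H19 libraries, so the groups overlapped in this too. The highest fold over input in the region was 5.61, 5.25 and 6.06 in V16D/CTL libraries and 5.09, 4.54 and 5.01 in V16D/H19 libraries. The centred log2 difference of −0.16 ± 0.11 (SE) did not pass (limma adjusted p = 0.801).

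The flanks of the region differed more. The second region, 14299 to 17562 bases after the start, was covered over 1953, 3167 and 2952 bases in V16D/CTL libraries and 642, 1692 and 1481 bases in V16D/H19 libraries. Peaks at the 3′ end of the gene, 17927 to 20591 bases after the start, had 2192, 2103 and 1998 bases in V16D/CTL libraries, 1618 and 457 bases in V16D/H19 replicates 2 and 3, and no peak in replicate 1. A region 27486 to 28802 bases after the start, which lies beyond the end of the gene, had a peak in 3 of 3 V16D/CTL libraries (fold 3.26, 3.63 and 3.4) and in 0 of 3 V16D/H19 libraries. Of 58789 H3K27me3 sites found in 2 or more libraries, 1.97% showed that split and 0.98% the opposite one. Most of the difference in cover thus lay toward and beyond the 3′ end of the gene.

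MIR483, a microRNA gene in the second region (chr11:2134134-2134209), was one place where the groups separated completely, and it was singled out after its values were seen. All 76 bases lay under an H3K27me3 peak in each V16D/CTL library and none did in any V16D/H19 library. The split was one of peak edges. Peaks of the same region ended shortly before the gene in V16D/H19 replicates 1, 2 and 3, at 2133994, 2133802 and 2133763. In V16D/CTL replicates 1, 2 and 3 the peak over the gene ended after it, at 2134383, 2135205 and 2134661. Of 93 microRNA genes covered in 2 or more libraries, 3 (3.23%) showed this split.

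**Figure D2:**
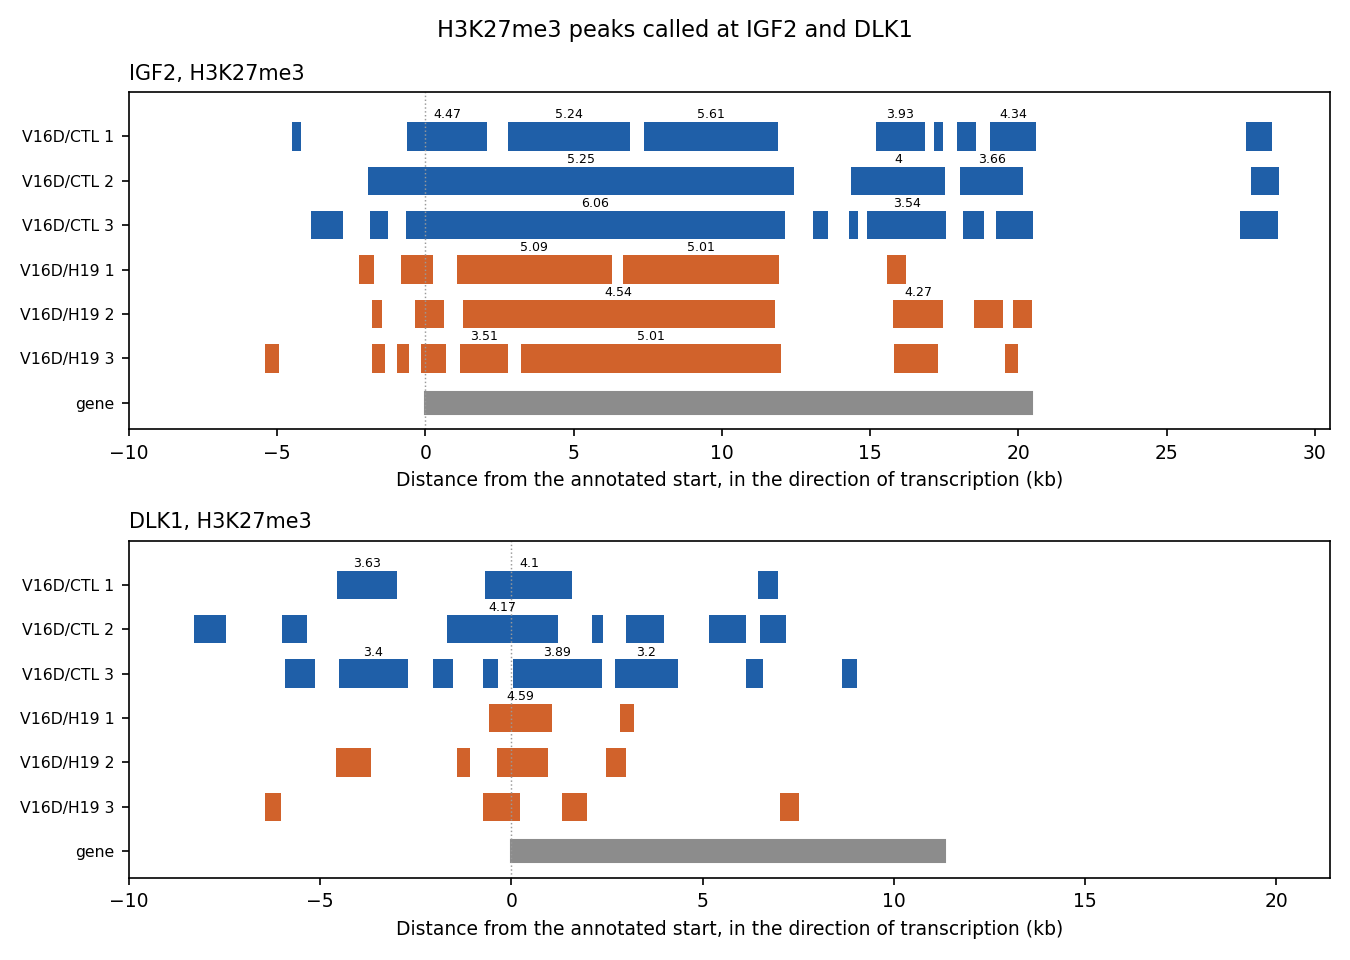
H3K27me3 peaks in the 6 libraries at IGF2 (top) and DLK1 (bottom), by distance in kb from the annotated start in the direction of transcription, with the gene as a grey bar. Numbers above peaks of over 1500 bases are the fold over input. The peaks at 27 to 29 kb after the IGF2 start appear in the V16D/CTL libraries alone, and those of DLK1 upstream of −2 kb are in 3 V16D/CTL and 2 V16D/H19 libraries.

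Restricting the lists to peaks with a −log10 q of at least 5 left IGF2 peaks in the V16D/CTL libraries alone, over 4520, 14386 and 12770 bases. The highest −log10 q at IGF2 was 5.68, 5.28 and 6.77 in V16D/CTL libraries and 4.61, 3.78 and 4.4 in V16D/H19 libraries. The latter lay under the limit, the nearest at 4.61 and the farthest at 3.78. At this limit 16.3% of 1726 windows with a peak had groups that did not overlap with V16D/H19 lower, and the numbers of such peaks in the whole lists differed between the groups as given above.

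DLK1 (chr14:100726892-100738224, plus strand), a paternally expressed membrane protein related to Notch ligands, had the next widest mean H3K27me3 cover in V16D/CTL libraries. In V16D/H19 libraries the mean at PEG10, 2.85 kb, was wider than that at DLK1. Peaks covered 4.37, 7.34 and 8.33 kb in V16D/CTL libraries and 2.05, 3.12 and 2.54 kb in V16D/H19 libraries. The groups did not overlap, with means of 6.68 kb ± 2.06 (SD, n = 3) and 2.57 kb ± 0.536 (SD, n = 3), and the exact permutation test gave its smallest value (p = 0.1). The core at the start, from −2061 to 2398 bases, had peaks in all 6 libraries and was covered over 2276, 3205 and 3238 bases against 1668, 1686 and 1653 bases. The highest fold among the called peaks there was 4.1, 4.17 and 3.89 in V16D/CTL libraries and 4.59, 3.87 and 4.08 in V16D/H19 libraries. These values overlapped (log2 difference 0.08 ± 0.11 SE, limma adjusted p = 0.911). A region at −5991 to −5132 bases had peaks in V16D/CTL replicates 2 and 3 and in no V16D/H19 library. The whole window held 3, 7 and 8 peaks in V16D/CTL libraries and 2, 4 and 4 peaks in V16D/H19 libraries, so these numbers overlapped. The lower cover included a narrower core. V16D/CTL replicates 2 and 3, with the longest H3K27me3 lists, had the most peaks.

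MEG3 (chr14:100826108-100861026, plus strand), a maternally expressed lncRNA that lies 87884 bases beyond DLK1 and shares its imprinted domain, had an H3K27me3 peak at its start in all 6 libraries. The window was covered over 0.709, 0.368 and 0.434 kb in V16D/CTL libraries and 0.762, 0.726 and 0.858 kb in V16D/H19 libraries. The groups did not overlap, with V16D/H19 higher (exact permutation p = 0.1). The peak at the start itself did overlap between the groups, at 709, 368 and 434 bases against 468, 726 and 525 bases, and V16D/H19 replicates 1 and 3 each had a further peak of 294 and 333 bases near the end of the gene. Fold at the start was 4.19, 3.06 and 5.09 in V16D/CTL libraries and 3.75, 3.37 and 3.32 in V16D/H19 libraries (limma adjusted p = 0.839). With 50 kb on each side the MEG3 window turned to −2.38 kb, and the groups again did not overlap. The added flank reaches RTL1, whose own window held 7.05, 6.24 and 5.1 kb in V16D/CTL and 3.08, 4.36 and 3 kb in V16D/H19 libraries. RTL1 is a paternally expressed gene of the same domain. DIO3, at the far end of the domain, held 5.46 to 7.09 kb and 6.32 to 6.76 kb, so the groups overlapped there.

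Over the 6 members with an H3K27me3 peak, IGF2 and DLK1 were lower without overlap and MEG3 higher, while CDKN1C, PEG10 and PLAGL1 overlapped. The median difference was −0.233 kb, against −0.167 kb over all windows with a peak. Among these 18807 windows, 14.2% were lower in V16D/H19 without overlap and 2.42% higher, and 66.7% had a lower mean. A lower count is thus common in this mark, and 2 of 6 members is to be read against it.

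The tables of differential sites deposited by the authors list 97 H3K27me3 sites higher and 1043 lower in V16D/H19. They held 2 rows with a member's symbol, both lower. For the IGF2 row (chr11:2131941-2151866) the authors' mean concentration, which is their normalized read count averaged over a group on a log2 scale, was 9 for V16D/CTL and 8.62 for V16D/H19, and only 10.2% of the rows of the table had a smaller difference. For the DLK1 row (chr14:100724830-100731244) it was 6.65 and 6.04. These are group means without an error per library. The 2 rows, 19926 and 6415 bases wide, overlap 4 of the 16 member sites found in 2 or more libraries (25%). Of all such sites, 2.83% overlap a row lower in V16D/H19 and 0.323% a row higher. Both rows span several neighbouring sites, so the 4 are not independent, and the shares were not compared by a test.

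For H3K4me3, no member site with a peak in all 6 libraries passed the test. CDKN1C, a maternally expressed cyclin-dependent kinase inhibitor, and PHLDA2, a maternally expressed gene that restrains placental growth, lie on either side of SLC22A18, a maternally expressed gene of a membrane transporter family, on chromosome 11. The PHLDA2 start (chr11:2928273-2929420, minus strand) had a broad peak in all 6 libraries, with a fold of 36, 48.8 and 43.9 in V16D/CTL libraries and 46.8, 40.3 and 46.6 in V16D/H19 libraries. The values overlapped, and the log2 difference was 0.01 ± 0.30 (SE, limma adjusted p = 0.997). PHLDA2 had the same promoter pattern (H3K4me3 in all 6 libraries and H3K27me3 in none) as GRB10 and as 21 of 40 other imprinted genes or their neighbours, among them KCNQ1OT1, MEST, IGF2R, SNRPN and NDN. These 4 numbers, libraries of 3 per group and mark, say nothing of shared control.

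CDKN1C (chr11:2883218-2885775, minus strand) had both marks at or shortly after its start. The H3K4me3 fold was 36.3, 20.4 and 22.6 in V16D/CTL libraries and 33.7, 36.4 and 11.5 in V16D/H19 libraries, with wide overlap (limma adjusted p = 0.97). The H3K27me3 peak began 1008, 977 and 637 bases after the start in V16D/CTL libraries and 330, 308 and 837 bases after it in V16D/H19 libraries. It covered 1018, 434 and 1491 bases in V16D/CTL and 1654, 1378 and 842 bases in V16D/H19 libraries, again with overlap (exact permutation p = 0.6). The marks lay on the same bases over 434 to 1071 bases in V16D/CTL and 761 to 1335 bases in V16D/H19 libraries. Of 23632 windows with H3K4me3 in all 6 libraries, 4.72% had such shared bases in all 6, and CDKN1C was the one member of 7 that did. PEG10 had them in 5 libraries.

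The H3K4me3 cover of the CDKN1C window was 2.88, 2.92 and 2.92 kb in V16D/CTL and 2.19, 2.65 and 2.23 kb in V16D/H19 libraries. The groups did not overlap (exact permutation p = 0.1), and PLAGL1 was the other of the 7 members that was lower without overlap, at 2.62, 2.54 and 2.8 kb against 2.45, 2.51 and 2.51 kb. No member was higher without overlap. Over 27055 windows with a peak the shares were 5.88% lower and 7.82% higher. At CDKN1C the gap came from a site at −7335 to −6387 bases, outside the gene, and without the flanks the groups overlapped at −0.127 kb.

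That upstream site, chr11:2892162-2893110, lies at −7529 to −6581 bases from the annotated start of SLC22A18 (chr11:2899691-2925246, plus strand). It was called in 3 of 3 V16D/CTL libraries, with a fold of 5.7, 12.1 and 5.63, and in 0 of 3 V16D/H19 libraries. Of 20708 H3K4me3 sites in 2 or more libraries, 0.41% showed this split and 0.903% the opposite one. Another site farther upstream, chr11:2890757-2891352, had peaks in all 6 libraries, at a fold of 9.54, 5.31 and 6.02 against 7.16, 5.66 and 5.54. The start of SLC22A18 itself had a weak peak in V16D/H19 replicates 1 and 2, at a fold of 5.08 and 5.95, and none in V16D/H19 replicate 3 or in any V16D/CTL library. The strongest peak of the gene, 1821 to 3523 bases after that start and over its internal RefSeq starts, was present in all 6 libraries, at 35.2, 38.2 and 21.1 against 36.4, 26.3 and 37.5 (limma adjusted p = 0.985). Near SLC22A18 an outer H3K4me3 site was therefore called in the V16D/CTL libraries, the annotated start in 2 V16D/H19 libraries, and the strong internal start in all.

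**Figure D3:**
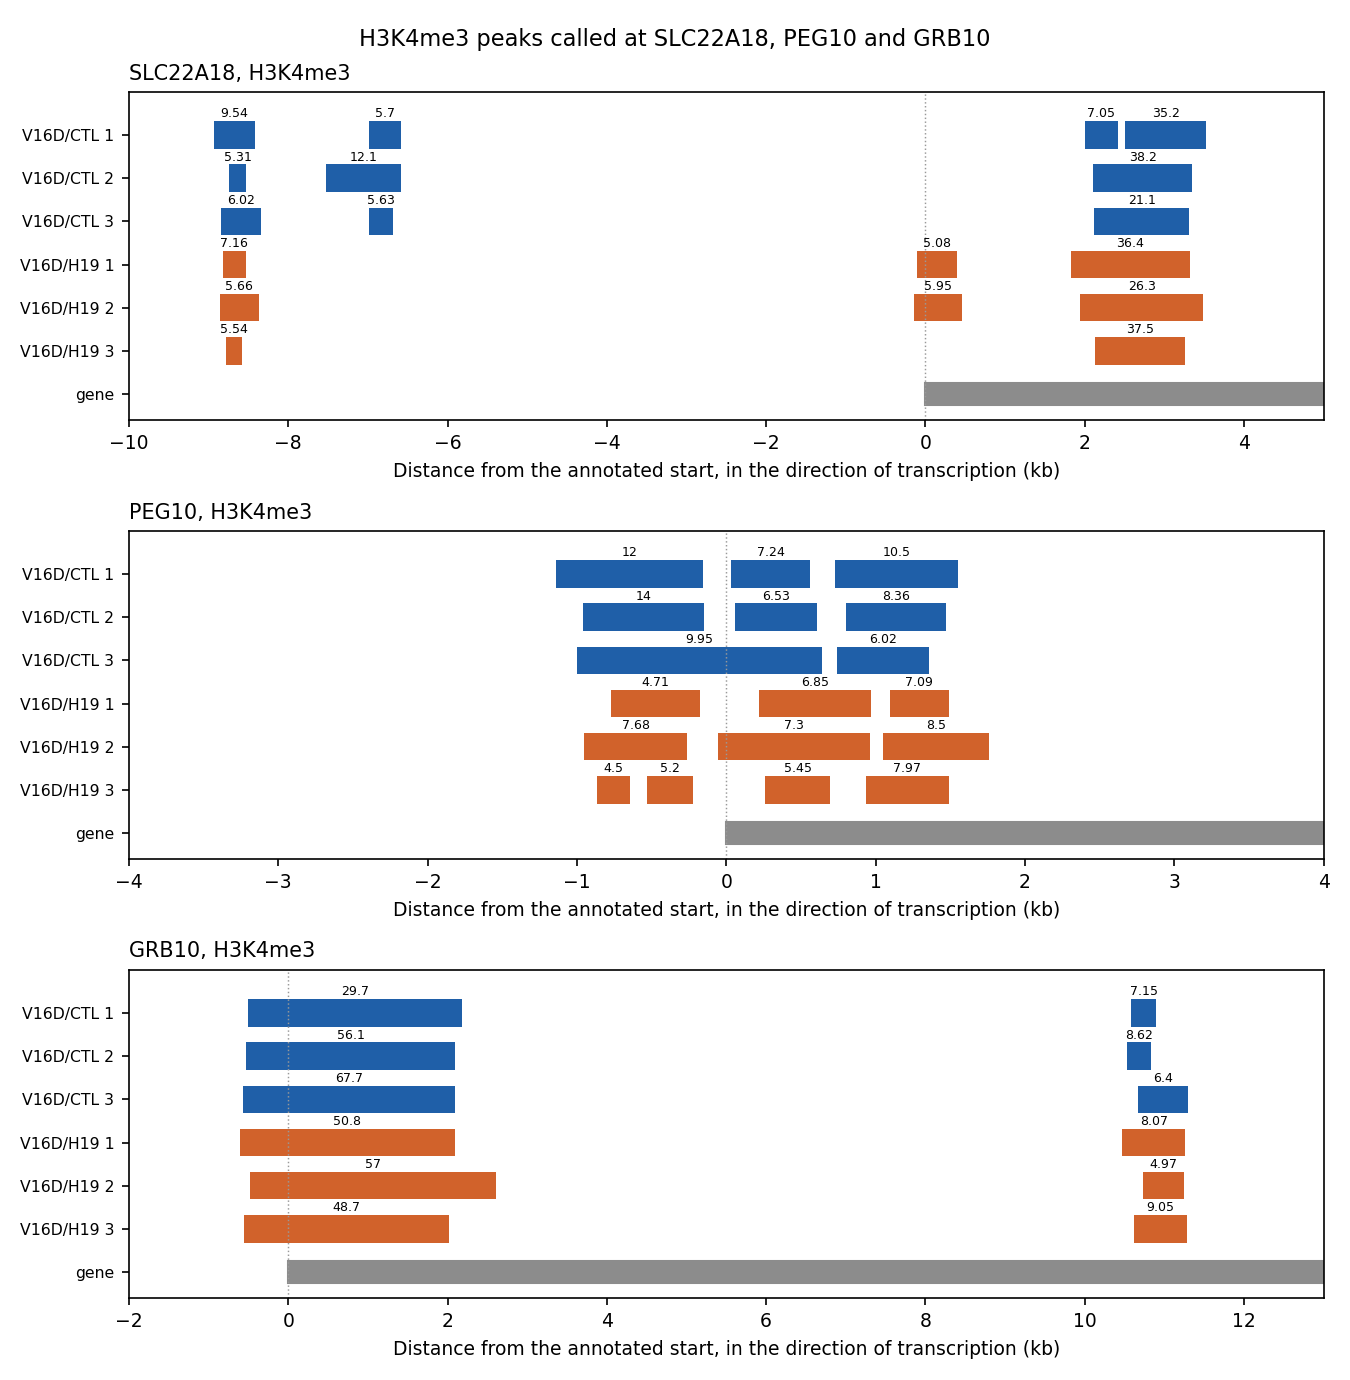
H3K4me3 peaks in the 6 libraries at SLC22A18, PEG10 and GRB10, by distance in kb from the annotated start in the direction of transcription, with the gene as a grey bar. Numbers above the peaks are the fold over input. At SLC22A18 the site near −7 kb is in V16D/CTL libraries alone, and at GRB10 the pair of peaks is in all 6. At PEG10 the peaks that begin before the start are lower in V16D/H19 libraries, and that of V16D/CTL replicate 3 runs past the start.

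PEG10 (chr7:94656325-94669695, plus strand), a paternally expressed gene derived from a retrotransposon, shares its promoter with SGCE, which is read in the opposite direction. It showed the largest fitted H3K4me3 difference of the 10 member sites present in all 6 libraries. The highest fold was 12, 14 and 9.95 in V16D/CTL libraries and 7.09, 8.5 and 7.97 in V16D/H19 libraries. The means were 12 ± 2.03 and 7.85 ± 0.708 (SD, n = 3 each). The log2 difference of −0.65 ± 0.32 (SE) did not pass the adjustment over 15811 sites (limma adjusted p = 0.754). The site was broken into 2 to 4 peaks a library. The peaks that begin before the PEG10 start, on the side of SGCE, reached 12, 14 and 9.95 against 4.71, 7.68 and 5.2. In V16D/CTL replicate 3 this peak ran from −997 to 638 bases, so its fold cannot be placed on one side of the start. Those that begin 700 bases or more after it reached 10.5, 8.36 and 6.02 against 7.09, 8.5 and 7.97, and overlapped. The pieces were chosen after the peaks were seen, and were not tested. H3K27me3 lay upstream of PEG10, over 1.87, 4.78 and 3.19 kb against 4.08, 2.79 and 1.69 kb, and the groups overlapped (exact permutation p = 0.7).

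GRB10 (chr7:50590068-50793453, minus strand) encodes an adaptor that restrains signalling from the insulin and IGF receptors. At its first start the H3K4me3 fold was 29.7, 56.1 and 67.7 in V16D/CTL libraries and 50.8, 57 and 48.7 in V16D/H19 libraries. At the internal start 10557 bases downstream it was 7.15, 8.62 and 6.4 against 8.07, 4.97 and 9.05. Both sites overlapped between the groups (limma adjusted p = 0.985 and 0.979). The internal peaks were 304 to 628 bases long in V16D/CTL and 513 to 789 in V16D/H19 libraries.

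PLAGL1 (chr6:143940300-144064599, minus strand) encodes a paternally expressed zinc finger transcription factor that acts on other imprinted genes. Its first start had a fold of 41.3, 23.5 and 36.7 in V16D/CTL libraries and 35.7, 42.8 and 24.2 in V16D/H19 libraries. The internal start, 56340 bases downstream, had 33.8, 16.5 and 20.7 against 20, 36.5 and 26.8. Neither differed beyond the spread (limma adjusted p = 0.994 and 0.947). The remaining 3 annotated starts had no H3K4me3 peak. H3K27me3 was seen in V16D/CTL replicate 3 and V16D/H19 replicate 2 alone.

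PEG3 (chr19:56810082-56840726, minus strand), a paternally expressed zinc finger gene, had no peak within 1 kb of its annotated start, which it shares with ZIM2. Its one H3K4me3 site lay 1837 to 3550 bases after the start, at a fold of 17.6, 19.4 and 19.5 in V16D/CTL libraries and 19.7, 19.5 and 14 in V16D/H19 libraries (limma adjusted p = 0.958). Cover was 1.66, 1.64 and 1.16 kb against 1.71, 1.63 and 1.58 kb, with overlap.

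**Figure D4:**
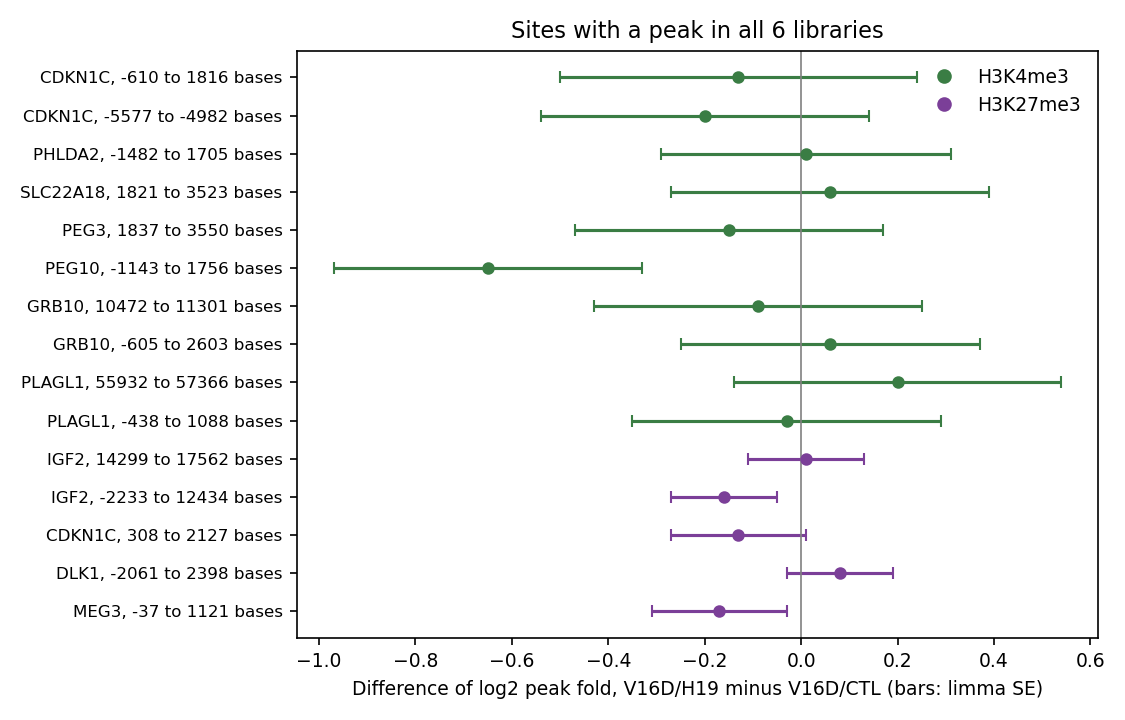
Difference of log2 peak fold between the groups at the 15 member sites with a peak in all 6 libraries, centred on the median of each library. Bars are the limma SE, and each site is named by its distance in bases from the start of the gene. The PEG10 site at −0.65 is the farthest from 0, and none passed the adjusted threshold.

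Over the members, the fitted differences of the 10 shared H3K4me3 sites ranged from −0.65 to 0.20 with a median of −0.06, beside −0.02 over all 15811 sites. Those of the 5 shared H3K27me3 sites ranged from −0.17 to 0.08 with a median of −0.13, beside −0.01 over all 10934 sites. Limma called 0 member sites at an adjusted p of 0.05, and 0 of them had an unadjusted p under 0.05. Over all sites it called 0 in either direction for either mark (0% of the sites), with 1049 H3K4me3 and 814 H3K27me3 sites at an unadjusted p under 0.05. The standard errors were 0.30 to 0.37 for H3K4me3 and 0.11 to 0.14 for H3K27me3.

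The authors' table for H3K4me3, with 445 sites higher and 1412 lower in V16D/H19, held 3 rows with a member's symbol. The PEG10 row (chr7:94654789-94658158) had an authors' mean concentration of 6.85 for V16D/CTL and 6.24 for V16D/H19. The SLC22A18 row (chr11:2899495-2900181), at the annotated start, had 2.1 and 4.04. The GRB10 row (chr7:50778495-50785895) had 2.03 and 4.22. A further row annotated to SLC22A18AS, the antisense neighbour, covers the upstream site called in V16D/CTL alone, at 5.08 and 3.38. The GRB10 row spans 7401 bases, whereas the one peak a library called inside it covered 304 to 789 bases, with a fold that overlapped between the groups. Concentrations near 2 to 4 are low beside the median of 8.59 over the V16D/CTL values of this table. Of the 15 member sites in 2 or more libraries, 2 (13.3%) overlap a higher row and 2 (13.3%) a lower row, beside 2.2% and 7.15% of all such sites.

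Within 1 kb of the annotated start, 5, 5 and 5 of the 10 members had an H3K4me3 peak in V16D/CTL libraries and 6, 6 and 5 in V16D/H19 libraries, the difference being SLC22A18. Among 19719 protein-coding genes, 62% to 63.2% had one. For H3K27me3 the numbers were 4, 5 and 6 against 5, 6 and 4, beside 9.11% to 11.4% of protein-coding genes. The 40 other imprinted genes and neighbours had 28 or 29 H3K4me3 and 6 to 9 H3K27me3 promoters a library. In their windows, H3K27me3 cover was lower without overlap at 4 of 18 genes with a peak (OSBPL5, RTL1, MEG8 and KLF14) and higher at 0. Over all windows with a peak the shares were 14.2% lower and 2.42% higher. RTL1 and MEG8 share the same peaks. H3K4me3 cover was higher at 3 of 34 (KCNQ1, PPP1R9A and KLF14) and lower at 3 (MKRN3, ATP10A and DDC). For this mark the shares over all windows with a peak were 7.82% higher and 5.88% lower.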

How the data were processed

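H3K4me3 and H3K27me3 ChIP-seq libraries of V16D/CTL and V16D/H19 cells were grouped by their titles. The submitters' processing notes name hg38, MACS2, DiffBind and ChIPseeker, and the aligner is not given in the sources used here. The authors called peaks in each library, in the narrow mode for H3K4me3 and the broad mode for H3K27me3. The deposited lists give for every peak its linear fold over input and its p-value and q-value as −log10. The deposited differential tables hold the authors' group means on a log2 scale, for sites with an FDR of up to 0.05 by the study's methods. Their fold and p columns, which hold the authors' comparison, were not used.

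Peaks were intersected with RefSeq gene windows (GRCh38.p14), with strand for 47685 of 59679 genes. SLC22A18 is listed there as SLC67A1 and was matched through the synonyms listed for that gene. Covered bases were compared by a two-sided exact permutation test, whose smallest p with 3 libraries a group is 0.1, and called different where the groups did not overlap. Peaks sharing at least 1 base were merged into sites. The log2 highest fold of sites with a peak in all 6 libraries was centred per library and fitted with limma 3.58.1 (R 4.3.3, trend) and Benjamini-Hochberg adjustment over all sites, with a threshold of 0.05. The limma step was tested on simulated data with known changes, and recovered fewer of the changed H3K4me3 sites than of the changed H3K27me3 sites. A site that did not pass is therefore not shown to be unchanged. Python 3.11.15 was used. Alternatives were a −log10 q of 5, lists of equal length, windows of 0 or 50 kb, promoters of 2.5 kb, other fits, a replicate block and leaving out each library. All 10 members were named, with every region in their windows counted. The members and gene lists were chosen with earlier results of these data known. Read depth was not used, so counting intervals are not given. The 6 input libraries entered only through the authors' peak calls.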

Additional observations from a re-analysis of the deposited data

How the results depend on the processing

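Lower H3K27me3 cover without overlap at IGF2 and DLK1 held with lists of equal length, without flanks, with 50 kb flanks and without any one library. With a −log10 q of at least 5 it held at IGF2 alone (1 member lower, 0 higher), no DLK1 peak was left, CDKN1C turned to −0.497 kb and MEG3 to −0.145 kb. The call of higher cover at MEG3 was lost without flanks (0 members higher) and turned to −2.38 kb with 50 kb flanks (0 higher), where CDKN1C gave −0.204 kb. For H3K4me3, 1 member (PLAGL1) was lower without flanks and 0 with 50 kb flanks, SLC22A18 gave 0.285 kb without flanks and PHLDA2 −0.174 kb with 50 kb flanks. H3K27me3 at PLAGL1, with peaks in 2 libraries, gave 0.339 kb with lists of equal length and 0.0447 kb without flanks. Without V16D/CTL replicate 1, PHLDA2 was higher in H3K4me3 without overlap, and without V16D/H19 replicate 3, GRB10 was. Without V16D/H19 replicate 2, PEG10 was lower without overlap, at −0.576 kb in place of −0.314 kb. The cause of these changes was not tested. Leaving out a library leaves groups of 2 and 3, which separate more easily than the full groups. The share of all windows called was not counted for those settings.

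Leaving out a library moved the number of members higher in H3K4me3 between 0 and 1 and the number lower between 2 and 3. It moved H3K4me3 cover between −0.0693 and 0.109 kb at PHLDA2, −0.00867 and 0.238 kb at PEG3, and −0.626 and 0.17 kb at SLC22A18. H3K27me3 cover moved between −1.13 and 0.321 kb at PEG10 and −0.376 and 0.339 kb at PLAGL1. The log2 differences of H3K4me3 fold that changed sign ran from −0.39 to 0.38 and −0.36 to 0.02 at CDKN1C (start and upstream site), −0.14 to 0.13 at PHLDA2, −0.33 to 0.33 and −0.29 to 0.21 at GRB10 (first and internal start), −0.27 to 0.17 and −0.02 to 0.46 at PLAGL1 (first and internal start) and −0.17 to 0.27 at SLC22A18. Those of H3K27me3 ran from −0.09 to 0.09 at IGF2 (second region), −0.33 to 0.03 at CDKN1C and −0.36 to 0.01 at MEG3. None of these log2 differences passed the threshold. The PHLDA2 site gave −0.11 with a length-weighted mean fold, and without centring the first PLAGL1 start gave 0.02 and the second IGF2 region −0.03. The difference in the mean number of members with an H3K4me3 promoter peak, 0.667, was 0 with promoters of 2.5 kb, and that for H3K27me3, 0, was −1.33 with a −log10 q of at least 5.

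No member site passed in any limma fit, with smallest adjusted p-values of 0.681 to 0.867 for H3K4me3 and 0.574 to 0.929 for H3K27me3. Over all sites, the fits called 0 or 1 H3K4me3 and 0 to 4 H3K27me3 sites. At a −log10 q of at least 5, H3K27me3 left 31 shared sites and none at a member. Replicate numbers are shared between the groups, but deviations of same-numbered libraries correlated at −0.00937 to 0.026, so they were not treated as pairs. The replicate block called 0 H3K4me3 and 2 H3K27me3 sites over all, 0 of them at a member. Calls of covered length (2 lower members in H3K4me3, 2 lower and 1 higher in H3K27me3) use no block. They could not change with it.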
